A study of Homo sapiens with 28 samples.

Results

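The genes described here take iron into prostate cancer cells, store it, release it and sense it. They are 9 genes named by symbol: TFRC, TF, FTH1, FTL, SLC11A2, SLC40A1, CP, ACO1 and IREB2. All 9 were found among the 19662 gene symbols of each of 2 RNA-Seq tables, 1 for PC3 cells and 1 for LNCaP cells. The study asked how the transcription factor ONECUT2 and low oxygen act together in prostate cancer cells. PC3, a prostate cancer line, received a control siRNA (siCtrl) or an siRNA against ONECUT2 (siOC2). LNCaP, another prostate cancer line, carried an empty vector (EV) or a vector for Flag-tagged ONECUT2 (OC2). Each of these was grown in normoxia or in hypoxia at 0.2% oxygen, giving 4 groups of 2 libraries for each line. The 2 siOC2 libraries of a group used 2 different siRNAs, numbered siRNA1 and siRNA2, so their spread includes a difference between reagents. No label says that libraries came from separate cultures, so the p-values measure the spread between these libraries, which may be technical.

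Cells take up most iron as transferrin, the plasma carrier encoded by TF, which binds the transferrin receptor TFRC and is carried inside, where SLC11A2 (DMT1) moves the iron into the cytosol. Ferritin, a shell built of FTH1 and FTL chains, stores iron, and ferroportin (SLC40A1) releases it with the help of the oxidase ceruloplasmin (CP). The iron regulatory proteins ACO1 (IRP1) and IREB2 (IRP2) bind a hairpin in mRNA, the iron-responsive element (IRE). In iron-poor cells this binding keeps TFRC mRNA stable and blocks the translation of ferritin mRNA, so the amount of ferritin mRNA is no measure of ferritin protein. TFRC is also known as a target of the hypoxia-inducible factors.

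The hairpins are shown because the 2 regulators bind this element, and the end of the transcript that carries it differs between these genes. Only the canonical transcript of each gene was searched, with full pairing required, so the list need not be complete. The pattern CNNNNNCAGTGN was searched on the transcript strand of the untranslated regions of the canonical GENCODE transcripts on GRCh37. The 5 bases between the unpaired C and the loop had to pair with the 5 after the loop, with G-T pairs allowed. The last loop base could not be G. The 5 bases printed at either end were not tested for pairing. In the 27-base sequences below, capitals mark the unpaired C and the loop of 6 bases.
TFRC 3′ UTR, site 1: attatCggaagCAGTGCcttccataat
TFRC 3′ UTR, site 2: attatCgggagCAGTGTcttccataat
TFRC 3′ UTR, site 3: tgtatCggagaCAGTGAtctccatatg
TFRC 3′ UTR, site 4: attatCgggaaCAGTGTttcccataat
FTH1 5′ UTR: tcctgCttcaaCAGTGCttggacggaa
FTL 5′ UTR: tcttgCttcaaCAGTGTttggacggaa
SLC40A1 5′ UTR: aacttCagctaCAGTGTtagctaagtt

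The 4 TFRC sites lie on the minus strand of chr3:195739382-195809024, the TFRC gene, at chr3:195777851-195777877, chr3:195777447-195777473, chr3:195777382-195777408 and chr3:195777335-195777361. The FTH1 site is at chr11:61735047-61735073 on the minus strand, the FTL site at chr19:49468593-49468619 on the plus strand and the SLC40A1 site at chr2:190445388-190445414 on the minus strand. TFRC carries its hairpins after the coding region, while FTH1, FTL and SLC40A1 carry 1 each before it. A match was also present in the 18024-base 3′ UTR annotated for TF. In all, 5 of the 9 genes held a match, and 105 of the 19528 genes searched did (0.538%). The genes were chosen as iron genes and the pattern describes their known element, so these shares are no test of enrichment. A match is a string of letters and not a measured binding site, and nothing is read from its absence in the other 4 genes.

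The tables hold RPKM, read numbers scaled to transcript length and to the mapped reads of the library, computed by the authors for each gene and library. They hold no counts, and the relative depth read from the smallest steps between low values was 0.348 to 0.418 of the reference library in 3 PC3 libraries (siOC2 hypoxia siRNA1, siCtrl hypoxia replicate 2 and siCtrl normoxia replicate 1), 0.877 to 1.146 in the other 5, and 0.548 to 1.000 in LNCaP. The labels were checked first. ONECUT2 was at 1.77 and 1.16 RPKM in siCtrl normoxia and 0.276 and 0.204 RPKM in siOC2 normoxia; in hypoxia it was at 0.648 and 0.550 RPKM with siCtrl and 0.125 and 0.214 RPKM with siOC2. It was at 2.89 to 11.5 RPKM in the EV libraries and has no value in the OC2 libraries, so the overexpression itself could not be checked. CA9, a hypoxia-induced gene, spanned 0.386 to 1.54 RPKM in PC3 normoxia and at least 25.8 RPKM in hypoxia, and 0 to 0.531 and 3.05 to 5.38 RPKM in LNCaP. ADM, NDRG1, PDK1 and BNIP3, also checked, were higher in every hypoxia library in both lines. VEGFA was so in LNCaP only, and in PC3 it overlapped, at 23.3 to 170 RPKM in normoxia and 55.7 to 238 RPKM in hypoxia. CD44, a surface marker of PC3, was at 171 to 661 RPKM in PC3 and at or under 0.748 RPKM in LNCaP. CAV1, also chosen as a PC3 marker, was at 15.9 to 107 RPKM in PC3 and at or under 0.12 RPKM in LNCaP. VIM, chosen likewise, did not separate the lines, at 30.2 to 353 RPKM in PC3 and 23.6 to 58.2 RPKM in LNCaP. Of 6 markers of immune, endothelial and fibroblast cells, PTPRC, CDH5, COL1A2 and DCN stayed at or under 0.158 RPKM in every library. The other two, CD68 and COL1A1, were detected in both lines; COL1A1 spanned 7.57 to 10.9 RPKM in LNCaP normoxia and 15.7 to 25.9 RPKM in hypoxia, CD68 28.7 to 36.5 and 21.1 to 26.7 RPKM, and their part in the results below was not tested.

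Both lines expressed the uptake and storage genes other than TF, and little of the export genes. By mean RPKM over 8 libraries, FTL was the most abundant of the 9 genes in PC3 (527 RPKM, rank 96 of 19662), followed by FTH1 (214 RPKM, rank 281) and TFRC (180 RPKM, rank 346). In LNCaP FTH1 stood at 2844 RPKM (rank 34), FTL at 220 RPKM (rank 552) and TFRC at 61.5 RPKM (rank 2125). SLC11A2, ACO1 and IREB2 were moderate in both lines, with means of 20.8, 10.7 and 13.3 RPKM in PC3 and 22.5, 15.3 and 21.3 RPKM in LNCaP. CP averaged 0.644 RPKM in PC3 and 4.19 RPKM in LNCaP, and SLC40A1 1.69 and 0.506 RPKM. TF, mainly a liver product, was at or under 0.166 RPKM in PC3, with 2 libraries listed at 0, and at or under 0.528 RPKM in LNCaP.

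The balance of the 2 ferritin chain mRNAs was opposite in the lines. The FTH1 to FTL ratio, taken within a library, was 0.229 to 0.700 in the 8 PC3 libraries and 9.90 to 16.1 in the 8 LNCaP libraries. The tables were normalised separately (the RPKM of a library summed to 401332 to 513810 in PC3 and 813232 to 961906 in LNCaP), so levels are set side by side with no test. FTH1 and FTL both have processed pseudogenes with nearly the same sequence, and how the authors assigned reads that fit several places is not given in the sources used here, so the absolute ferritin levels are uncertain.

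**Figure D1:**
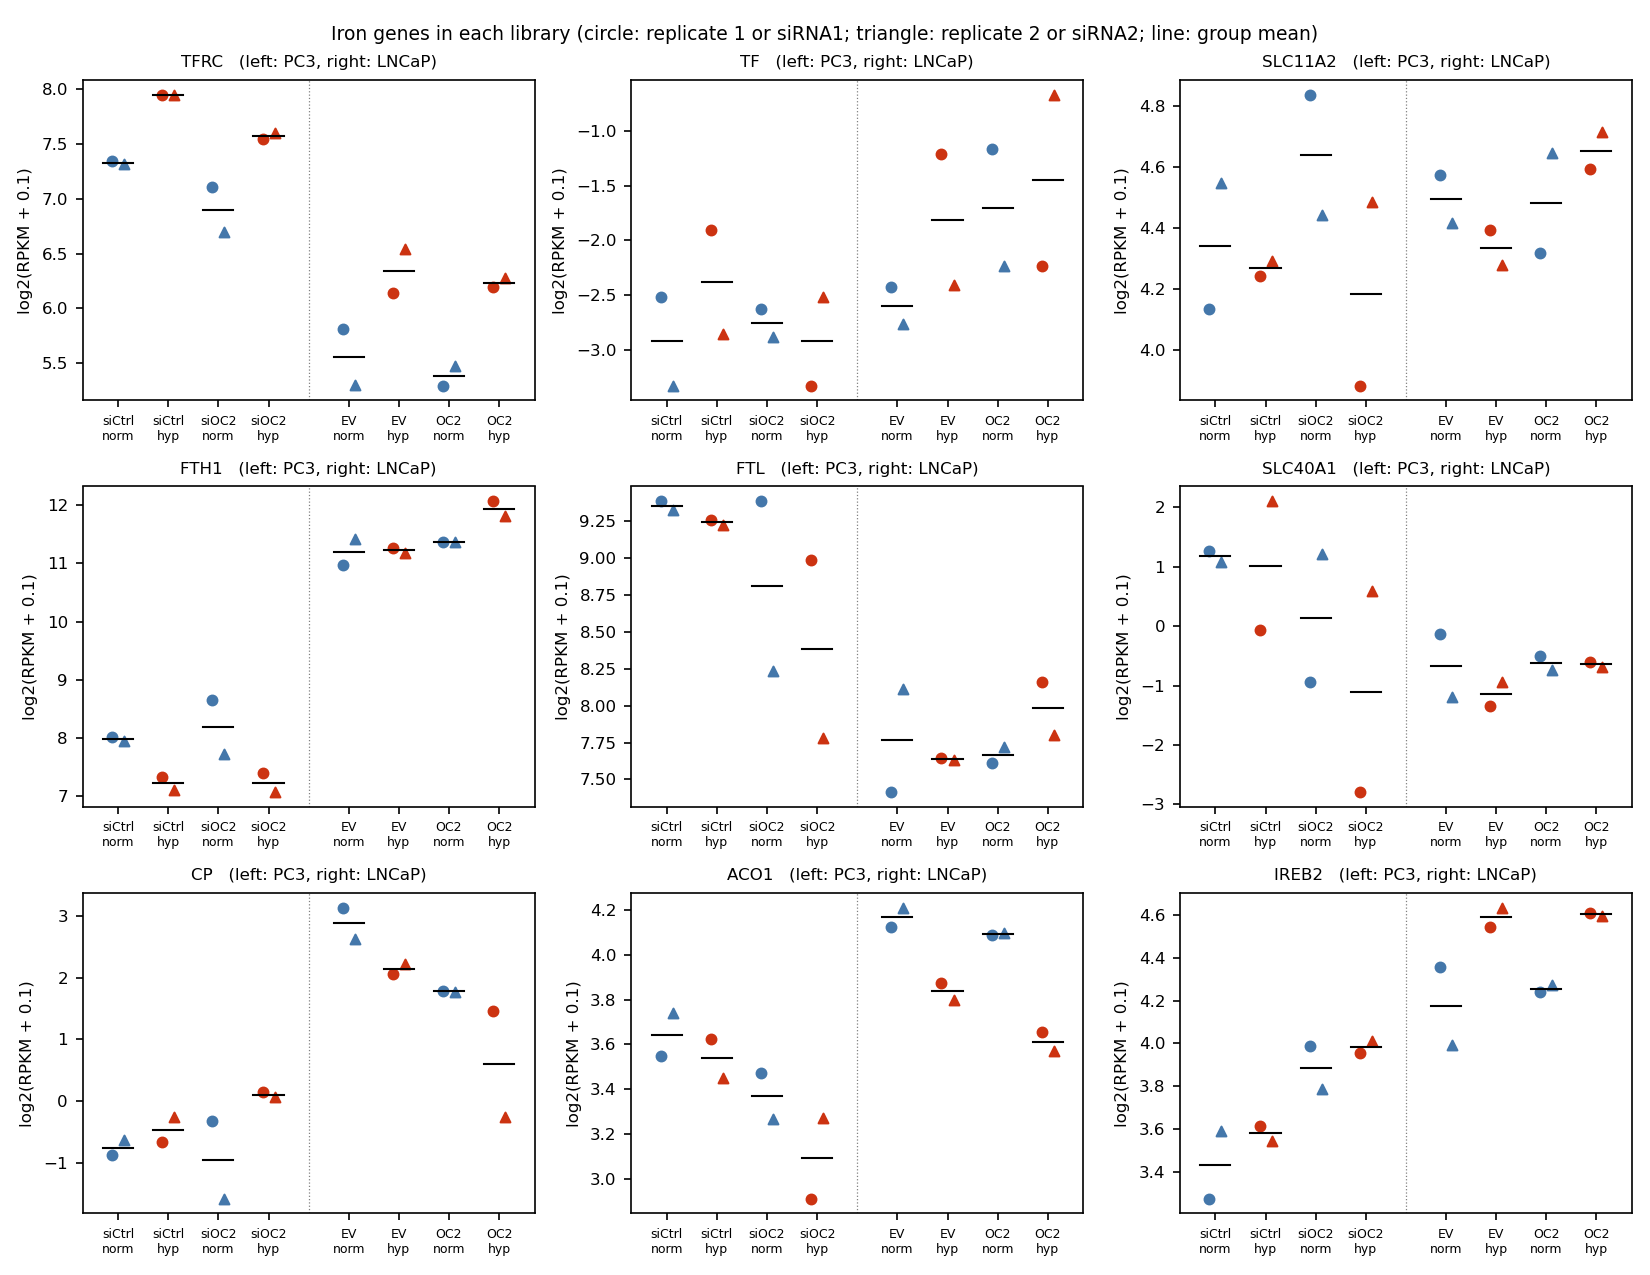
Level of each gene in the 16 libraries as log2(RPKM + 0.1), with normoxia in blue and hypoxia in red, circles for replicate 1 or siRNA1, triangles for replicate 2 or siRNA2 and a line for the mean of each group of 2. TFRC was higher in hypoxia within each of the 4 pairs of groups, while FTH1 was lower in hypoxia in both PC3 pairs and highest in the OC2 hypoxia libraries of LNCaP.

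Differences were tested with limma on log2(RPKM + 0.1), 4 groups of a line fitted together, for the genes that reached 1 RPKM in 2 or more libraries. TF and CP in PC3, and TF and SLC40A1 in LNCaP, were under this limit and are given as values, leaving 7 of the 9 genes tested in each line. A gene passed by the limits of the study or by an adjusted p, and the text says which. The limits of the study were a fold change over 2 with an unadjusted P under 0.05. The adjusted p (Benjamini-Hochberg over all genes tested) had to be under 0.05. Statements that libraries did not overlap describe the values only, and the share of all genes without overlap was not computed.

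TFRC rose in hypoxia in LNCaP and stood higher in hypoxia in PC3 too. In LNCaP the EV libraries were at 56.0 and 39.4 RPKM in normoxia and 70.3 and 93.1 RPKM in hypoxia, and the OC2 libraries at 39.1 and 44.2 RPKM in normoxia and 73.0 and 77.3 RPKM in hypoxia. All 4 hypoxia libraries were above all 4 normoxia libraries. The log2 fold change averaged over both vectors was 0.82 (SE 0.132), a 1.76-fold rise (adjusted p = 0.00168), and its adjusted p stayed at or under 0.0100 in all 14 alternatives. It was 0.78 with EV (adjusted p = 0.0147) and 0.85 with OC2 (adjusted p = 0.0129), and the difference of the 2 responses was 0.068 (95% interval -0.54 to 0.67, adjusted p = 0.925). Within 1 vector the call was lost without some of the libraries: without EV hypoxia replicate 2 or EV normoxia replicate 2 the adjusted p with EV rose to at most 0.0978, and without either OC2 hypoxia library or OC2 normoxia replicate 1 that with OC2 to at most 0.0761. In bulk RNA a change in the RNA of each cell and a change in which cells make up the culture cannot be told apart.

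In PC3, TFRC was at 163 and 159 RPKM in siCtrl normoxia and 246 and 247 RPKM in siCtrl hypoxia. With siOC2 it was at 137 and 104 RPKM in normoxia and 187 and 194 RPKM in hypoxia. Again no hypoxia library fell among the normoxia libraries. The mean log2 fold change was 0.65 (SE 0.161, 1.56-fold, unadjusted P = 0.00354), but the adjusted p was 0.151. Over all genes 0.614% of the 12214 tested in PC3 had an adjusted p under 0.05 in this contrast, against 45.2% of 12283 in LNCaP. With the 2 siRNA groups apart, the values were 0.62 with siCtrl (adjusted p = 0.566) and 0.67 with siOC2 (adjusted p = 0.719).

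The TFRC promoter is shown because this gene stood higher in hypoxia in both lines and hypoxia-inducible factors bind the core ACGTG. RefSeq windows of 300 bases (250 before the start site to 50 after, GRCh38.p14) were available for 7 of the 9 genes, and ACGTG was searched on both strands. In the stretch at chr3:196082129-196082223, minus strand, capitals mark the core, which starts 88 bases before the start site.
TFRC promoter, bases 133 to 39 before the start site: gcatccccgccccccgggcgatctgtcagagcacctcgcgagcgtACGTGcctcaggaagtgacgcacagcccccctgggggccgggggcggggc
Of 12 windows for these 7 genes 3 held the core (TFRC, TF and FTL), against 7518 of 35116 windows in all (21.4%), so the letters alone do not set the genes apart.

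The ferritin heavy chain mRNA was lower in hypoxia in PC3 and, with ONECUT2, higher in LNCaP. In PC3, FTH1 was at 258 and 247 RPKM in siCtrl normoxia and 161 and 137 RPKM in siCtrl hypoxia. It was at 400.4 and 211 RPKM in siOC2 normoxia and 168 and 134 RPKM in siOC2 hypoxia, so that every hypoxia library was below every normoxia library. The mean log2 fold change was -0.86 (SE 0.226, 0.551-fold, unadjusted P = 0.00478, adjusted p = 0.168), with -0.77 for siCtrl (adjusted p = 0.64) and -0.96 for siOC2 (adjusted p = 0.719).

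In LNCaP the EV libraries had 2009 and 2741 RPKM of FTH1 in normoxia and 2471 and 2322 RPKM in hypoxia, and these overlapped. Their log2 fold change was 0.029 (95% interval -0.33 to 0.38, adjusted p = 0.902). The OC2 libraries had 2648 and 2652 RPKM in normoxia and 4306 and 3600 RPKM in hypoxia, with no overlap. Here FTH1 rose by a log2 fold change of 0.57 (SE 0.155, 1.49-fold, adjusted p = 0.0285).

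ONECUT2 and hypoxia together gave the highest FTH1. In hypoxia FTH1 was 1.64-fold higher with OC2 than with EV (log2 fold change 0.72, SE 0.155, adjusted p = 0.0239), and in normoxia the log2 difference was 0.18 (adjusted p = 0.525). The interaction, the difference of those differences, was 0.54 (SE 0.219, unadjusted P = 0.0375) with an adjusted p of 0.267, so the dependence on oxygen did not pass across all genes. The 2 adjusted calls also rest on all the libraries compared: leaving out any 1 of the 4, or setting no limit on low values, raised the adjusted p over the threshold, up to 0.162 for hypoxia with OC2 and 0.180 for OC2 over EV, while every fold change kept its sign.

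FTL did not pass in any comparison. In PC3 it was at 667 and 641 RPKM in siCtrl normoxia, 612 and 597 RPKM in siCtrl hypoxia, 668 and 301 RPKM in siOC2 normoxia and 506 and 220.0 RPKM in siOC2 hypoxia. The lower siOC2 value was the siRNA2 library at both oxygen levels, and with 1 library for each siRNA and oxygen level this difference has no test. In LNCaP FTL was at 170 and 277 RPKM in EV normoxia, 200.3 and 198 RPKM in EV hypoxia, 196 and 210 RPKM in OC2 normoxia and 286 and 223 RPKM in OC2 hypoxia. The OC2 hypoxia libraries were the highest pair on average, as for FTH1, but the log2 difference from EV was 0.34 (95% interval -0.14 to 0.82, adjusted p = 0.326).

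**Figure D2:**
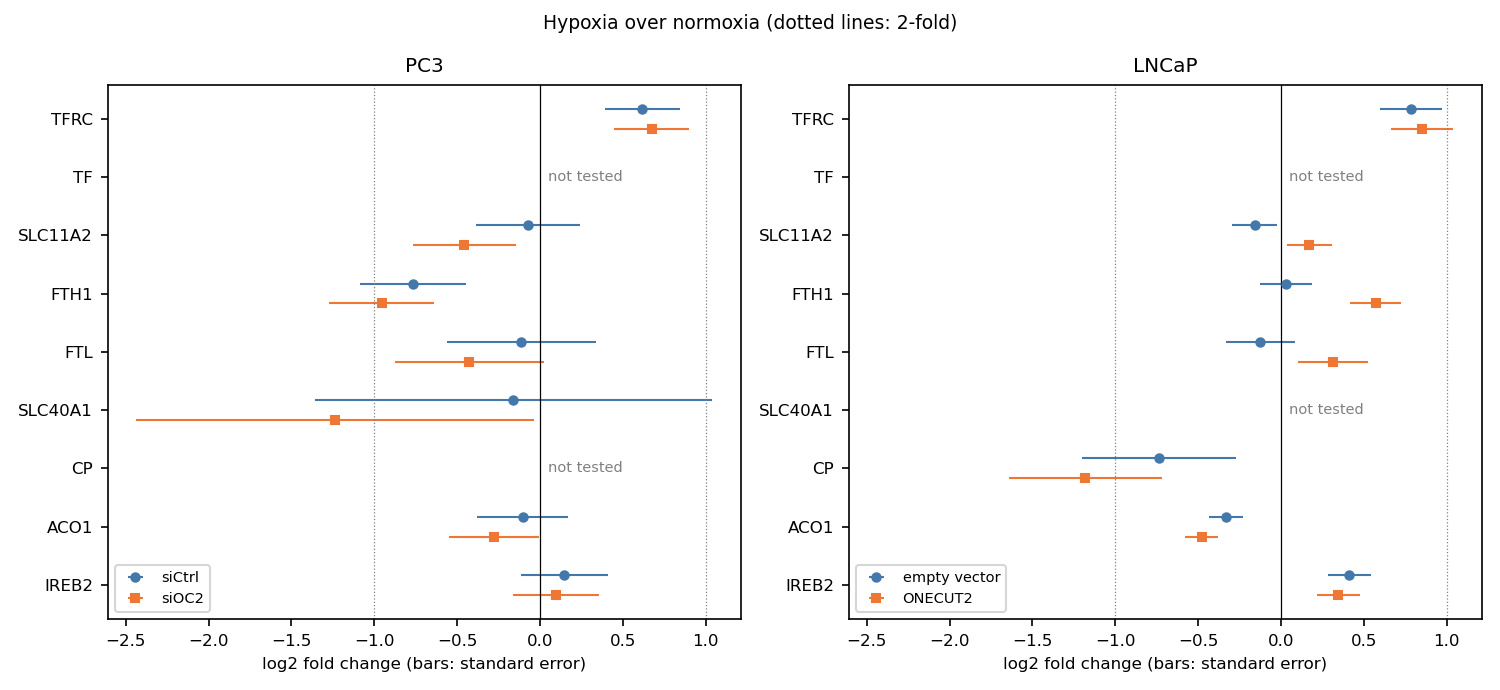
Log2 fold change in hypoxia over normoxia with its standard error for each gene, in PC3 (left; siCtrl blue, siOC2 orange) and LNCaP (right; empty vector blue, ONECUT2 orange), with dotted lines at 2-fold. TFRC lies between 0.62 and 0.85 in all 4 contrasts, FTH1 at -0.77 and -0.96 in PC3 and at 0.029 and 0.57 in LNCaP.

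Because RPKM share a library's scaling, TFRC was also set against FTH1 within each library, which removes that scaling. In PC3 the TFRC to FTH1 ratio was 0.630 and 0.643 in siCtrl normoxia and 1.53 and 1.81 in siCtrl hypoxia, and 0.343 and 0.492 in siOC2 normoxia and 1.11 and 1.45 in siOC2 hypoxia. TFRC was thus below FTH1 in every normoxia library and above it in every hypoxia library, while it stayed below FTL in all 8 libraries. The geometric mean ratio was 0.511 in normoxia and 1.45 in hypoxia, a 2.84-fold rise. An exact permutation test (2-sided, n = 4 against 4) gave p = 0.0286, the smallest this design can give. It treats the siCtrl and siOC2 libraries of an oxygen level as alike, though the siOC2 ratios were lower at both levels. Swaps kept within siCtrl and within siOC2 were not run. With the replicate number as a block the exact permutation p was 0.0556, which misses the threshold and is the smallest that the blocked test can give.

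In LNCaP the ratio was 0.0279 and 0.0144 in EV normoxia, 0.0284 and 0.0401 in EV hypoxia, 0.0148 and 0.0167 in OC2 normoxia and 0.0169 and 0.0215 in OC2 hypoxia. The groups overlapped, and the ratio was 1.43-fold higher in hypoxia on average (exact permutation test with EV and OC2 pooled, p = 0.1714). Whether the response of the ratio differed between the lines was not tested, since the tables were made separately.

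**Figure D3:**
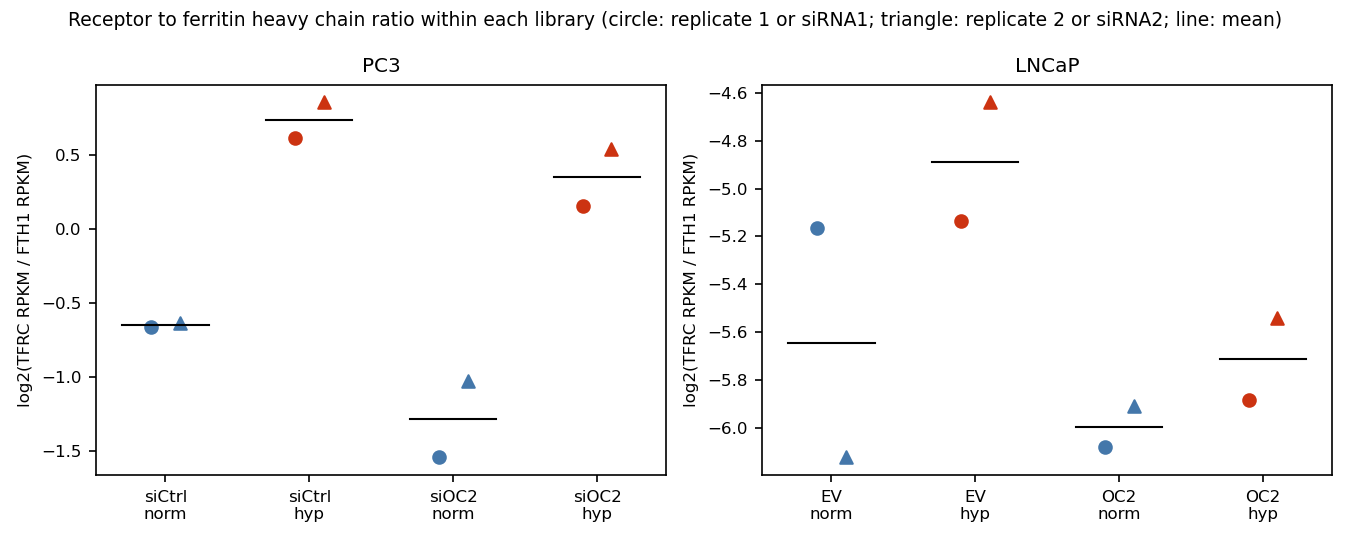
Log2 of the TFRC to FTH1 RPKM ratio in each library of PC3 (left) and LNCaP (right), with normoxia in blue, hypoxia in red and a line for the mean of each group of 2; the y axes differ. The 4 PC3 hypoxia libraries lie above 0 and the 4 normoxia libraries below it, while all LNCaP libraries lie between -6.12 and -4.64.

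The mRNAs of the 2 iron regulatory proteins moved in opposite directions in LNCaP, and the proteins were not measured. ACO1 was at 17.3 and 18.4 RPKM in EV normoxia, 14.6 and 13.8 RPKM in EV hypoxia, 16.91 and 16.99 RPKM in OC2 normoxia and 12.5 and 11.8 RPKM in OC2 hypoxia. All hypoxia libraries were lower, and ACO1 fell by 0.41 on the log2 scale (SE 0.0725, 0.755-fold, adjusted p = 0.00277). IREB2 was at 20.4 and 15.8 RPKM in EV normoxia, 23.2 and 24.8 RPKM in EV hypoxia, 18.8 and 19.2 RPKM in OC2 normoxia and 24.3 and 24.1 RPKM in OC2 hypoxia.

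Every hypoxia library was thus above every normoxia library for IREB2, which rose by 0.38 on the log2 scale (SE 0.0923, adjusted p = 0.011). Both changes are small, and both kept an adjusted p under the threshold in all 14 alternatives (up to 0.0178 for ACO1 and 0.0444 for IREB2). Within 1 vector the values were -0.33 (adjusted p = 0.0392) with EV and -0.48 (adjusted p = 0.0117) with OC2 for ACO1, and 0.41 (adjusted p = 0.042) and 0.35 (adjusted p = 0.0827) for IREB2; the call for ACO1 with EV was lost in 7 of 15 alternatives and that for IREB2 with EV in 11 of 15.

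In PC3 neither regulator mRNA passed in hypoxia. ACO1 was at 11.6 and 13.3 RPKM in siCtrl normoxia, 12.2 and 10.8 RPKM in siCtrl hypoxia, 11.001 and 9.52 RPKM in siOC2 normoxia and 7.43 and 9.55 RPKM in siOC2 hypoxia. IREB2 was at 9.56 and 11.9, 12.1 and 11.6, 15.8 and 13.7, and 15.4 and 16.01 RPKM in the same groups. All 4 siCtrl libraries were below all 4 siOC2 libraries for IREB2. IREB2 was lower and ACO1 higher with siCtrl than with siOC2 at both oxygen levels without overlap, at log2 differences of -0.46 and -0.40 for IREB2 and 0.27 and 0.45 for ACO1 in normoxia and hypoxia, but the smallest adjusted p of these was 0.566.

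The export side was low, and CP was the gene that varied most in LNCaP. CP was at 8.71 and 6.07 RPKM in EV normoxia, 4.08 and 4.57 RPKM in EV hypoxia, 3.37 and 3.31 RPKM in OC2 normoxia and 2.66 and 0.735 RPKM in OC2 hypoxia. Both hypoxia and ONECUT2 thus came with less CP, without overlap between the groups in any of the 4 contrasts, which share libraries. By the limits of the study CP fell with OC2 in normoxia (log2 fold change -1.10, SE 0.464, unadjusted P = 0.044, adjusted p = 0.195) and in hypoxia (-1.54, unadjusted P = 0.00991, adjusted p = 0.0671), and with hypoxia in OC2 cells (-1.18, unadjusted P = 0.0335, adjusted p = 0.0936).

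Hypoxia averaged over both vectors gave CP -0.96 (SE 0.328, adjusted p = 0.0427), and hypoxia with EV -0.74 (adjusted p = 0.253). These calls lean on single libraries. Without the OC2 hypoxia library at 0.735 RPKM, the log2 fold change was -0.68 for OC2 over EV in hypoxia and -0.32 for hypoxia with OC2, and neither was called; the second call was also lost without either OC2 normoxia library (-1.17 and -1.19), the call in normoxia was lost without any 1 of the 4 libraries compared, and the adjusted call for the mean in 7 of 14 alternatives (adjusted p up to 0.112). The 3 tested genes closest to CP across the 8 LNCaP libraries, as a description of log2 levels, were KNTC1 (Pearson's r 0.993), GINS4 (0.975) and CDC25C (0.962). In PC3 CP stayed between 0.234 and 1.01 RPKM and was not tested.

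SLC40A1 was too low in LNCaP to test, at 0.293 to 0.812 RPKM. In PC3 it was at 2.31 and 2.02 RPKM in siCtrl normoxia, 0.852 and 4.204 RPKM in siCtrl hypoxia, 0.419 and 2.22 RPKM in siOC2 normoxia and 0.0441 and 1.40 RPKM in siOC2 hypoxia. The siRNA1 libraries were the lowest of the 8, and the spread within groups left no contrast passing. The importer SLC11A2 was level by comparison: 14.7 to 28.5 RPKM in PC3 and 19.3 to 26.2 RPKM in LNCaP. Its nearest approach was OC2 over EV in LNCaP hypoxia, with 24.0 and 26.2 against 20.9 and 19.3 RPKM (log2 fold change 0.32, unadjusted P = 0.0442, adjusted p = 0.165).

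TFRC in PC3 followed ONECUT2 in the same direction at both oxygen levels but did not pass. All siCtrl libraries were above the siOC2 libraries of the same oxygen level, at a log2 difference of 0.43 in normoxia (95% interval -0.092 to 0.95, adjusted p = 0.621) and 0.37 in hypoxia (-0.15 to 0.89, adjusted p = 0.562). The interaction was -0.056 (-0.79 to 0.68). In LNCaP the EV and OC2 libraries overlapped for TFRC at both oxygen levels.

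**Figure D4:**
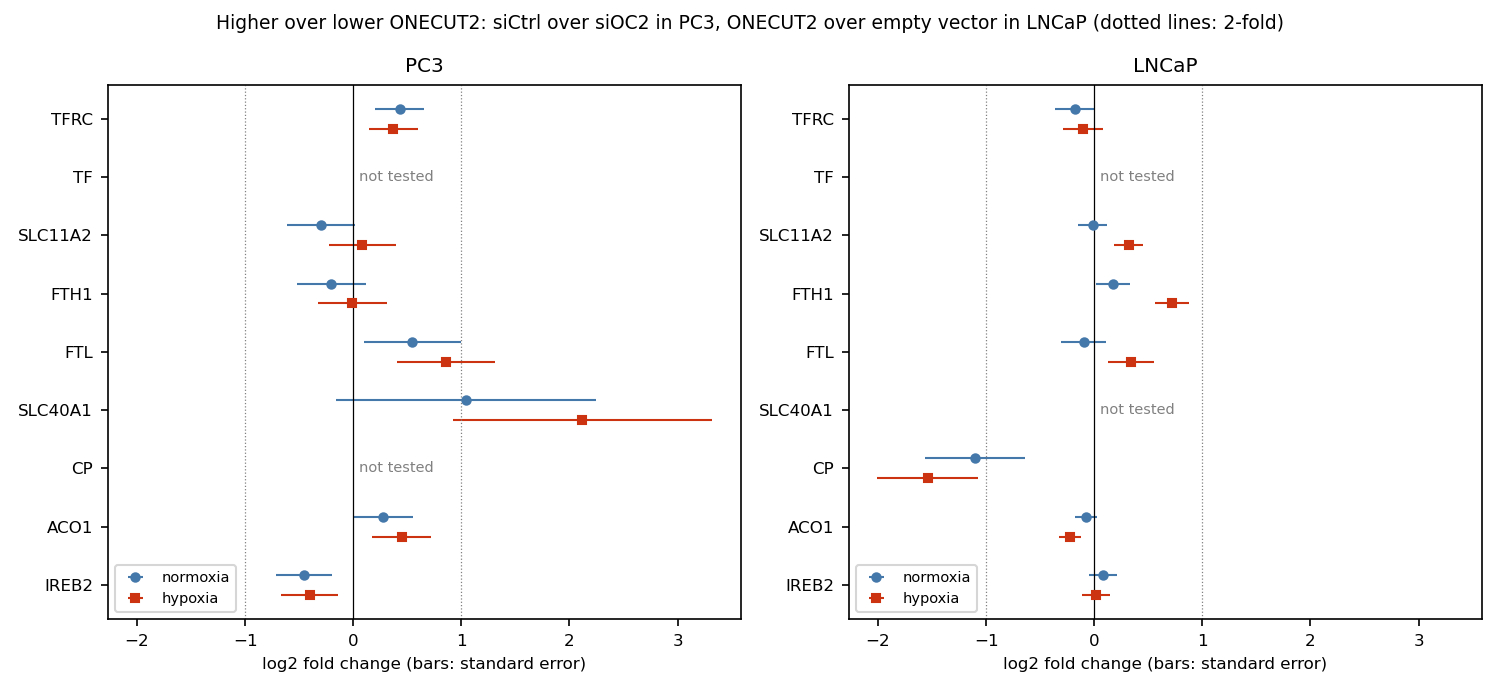
Log2 fold change with its standard error for higher over lower ONECUT2, as siCtrl over siOC2 in PC3 (left) and ONECUT2 over empty vector in LNCaP (right), in normoxia (blue) and hypoxia (red), with dotted lines at 2-fold. CP in LNCaP lies at -1.10 and -1.54, and FTH1 in LNCaP hypoxia at 0.72.

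The counts of genes passing are read against all genes tested. By the limits of the study 0 of 7 genes passed in the PC3 hypoxia contrasts with siCtrl, with siOC2 and on average, against 3.86%, 3.46% and 3.65% of all genes tested. At an unadjusted P under 0.05 alone 2 of 7 genes, TFRC and FTH1, stood in each of the 3, against 7.38%, 6.71% and 14.0% of all genes. For siCtrl over siOC2 in normoxia, in hypoxia and for the interaction 0 of 7 passed, against 5.21%, 7.5% and 0.942%. In these 3 contrasts 0 of 7 had an unadjusted P under 0.05, against 9.2%, 12.1% and 1.03% of all genes. By the adjusted p from limma 0 of 7 passed in all 6 PC3 contrasts, and of all genes 0.27%, 0.00819%, 0.614%, 0.00819%, 0.0901% and 0% passed in the same order (1.03% of genes had an unadjusted P under 0.05 in the interaction).

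In LNCaP the limits of the study gave 0, 1 and 0 of 7 genes for hypoxia with EV, with OC2 and on average, against 7.95%, 6.84% and 6.24% of all genes. They gave 1, 1 and 0 of 7 for OC2 over EV in normoxia, in hypoxia and for the interaction, against 3.29%, 4.47% and 3.7%; CP was the gene each time. By the adjusted p 3, 3 and 4 of 7 passed for hypoxia with EV, with OC2 and on average, against 32.3%, 26.9% and 45.2%, which for 7 genes is near the share of all genes. For OC2 over EV in normoxia, in hypoxia and for the interaction 0, 1 and 0 of 7 passed, against 5.25%, 11.5% and 0.244%.

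Of 60 further genes of iron biology in 8 lists, 49 were tested in PC3 and 53 in LNCaP. Averaged over both vectors, hypoxia in LNCaP changed 31 of the 53 by the adjusted p (45.2% of all genes passed), 14 up and 17 down, with a median of -0.11 on the log2 scale beside 0.0572 for all genes. Mitochondrial import and iron-sulfur assembly, which builds the clusters that ACO1 among others carries, held 2 genes that rose and 11 that fell of 21 tested (median -0.22). Haem synthesis and breakdown held 4 that rose and 3 that fell of 12. The shares of all genes that rose or fell by the adjusted p were not computed, so these splits have no background beside them. In PC3 no listed gene had an adjusted p under 0.05 in hypoxia on average (0.614% of all genes did), 1 had an unadjusted P under 0.05 upward and 6 downward (14.3% of the 49, beside 14.0% of all genes), and the median was -0.19 against -0.149 over all genes.

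4 of the 53 listed genes passed both limits in LNCaP hypoxia on average, all upward, and by the limits of the study 6.24% of all genes passed, so the count is near the background. TFR2, a second transferrin receptor, was at 0.310 and 0.356 RPKM in EV normoxia, 0.769 and 1.24 RPKM in EV hypoxia, 0.423 and 0.417 RPKM in OC2 normoxia and 1.09 and 1.31 RPKM in OC2 hypoxia (log2 fold change 1.32, SE 0.212, adjusted p = 0.00169). SLC39A8, a metal importer, was at 24.6 and 23.7, 53.6 and 54.2, 16.2 and 23.1, and 33.8 and 36.5 RPKM in those groups (1.01, SE 0.11, adjusted p = 0.000269). Both rose in the same libraries as TFRC, without overlap of the oxygen levels. Their list, uptake and reduction, did not rise as a whole: of 6 genes tested 2 rose and 2 fell by the adjusted p (45.2% of all genes passed, up or down).

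HEPH, a copper oxidase of iron export related to CP, went the other way from CP. It was at 0.251 and 0.222 RPKM in EV normoxia, 0.977 and 1.17 RPKM in EV hypoxia, 0.250 and 0.242 RPKM in OC2 normoxia and 1.64 and 1.11 RPKM in OC2 hypoxia (1.93, SE 0.212, adjusted p = 0.000277). EPAS1, which encodes HIF-2α and has an IRE of its own, was at 1.43 to 2.98 RPKM in the 4 normoxia and 3.84 to 5.21 RPKM in the 4 hypoxia libraries (1.12, SE 0.209, adjusted p = 0.00331). A pseudocount of 1 brought TFR2 to 0.60, HEPH to 0.83, EPAS1 to 0.85 and SLC39A8 to 0.98, all under the fold limit. SLC39A8 moved little and lay at the limit, while the fold change of genes as low as TFR2 and HEPH is understated on this scale.

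Other passing genes in the lists were fewer. NFS1, the cysteine desulfurase of cluster assembly, fell in LNCaP hypoxia with OC2, from 153 and 87.5 to 51.8 and 49.3 RPKM (-1.20, SE 0.236, adjusted p = 0.00881); without the library at 153 RPKM it was -0.79, and without OC2 hypoxia replicate 2 the adjusted p was 0.0552. STEAP4, a metalloreductase, was higher with OC2 than with EV in hypoxia, at 1.48 and 1.16 against 0.555 and 0.445 RPKM (1.24, SE 0.273, adjusted p = 0.026), and without any 1 of these 4 libraries the adjusted p was over the threshold (up to 0.177). BMP6, which induces hepcidin, passed the limits of the study in the LNCaP interaction (1.504, SE 0.4, adjusted p = 0.142), and was at 0.83 with a pseudocount of 1.

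In PC3 the calls in the lists passed the limits of the study and not the adjusted p. FDXR, the ferredoxin reductase, fell in hypoxia from 3.92 and 4.31 to 2.29 and 1.22 RPKM with siCtrl and from 3.63 and 3.32 to 0.801 and 1.87 RPKM with siOC2 (mean log2 fold change -1.33, SE 0.336, adjusted p = 0.154). STEAP2, a metalloreductase, fell with siCtrl from 7.25 and 8.40 to 3.48 and 3.54 RPKM (-1.13, adjusted p = 0.422), and EPAS1 rose with siCtrl from 21.2 and 23.3 to 52.8 and 38.4 RPKM (1.02, adjusted p = 0.611). ISCA2, a cluster assembly factor, was at 8.81 and 7.51 RPKM with siCtrl in hypoxia and at 1.65 and 5.26 RPKM with siOC2 in hypoxia (siCtrl over siOC2 1.43, adjusted p = 0.298; hypoxia with siOC2 -1.29, adjusted p = 0.719), and without the siOC2 siRNA1 library, the shallowest, these were 0.62 and -0.48 and not called. Leaving out 1 library also ended the calls of EPAS1 (siCtrl hypoxia replicate 1 or either normoxia library), of STEAP2 (siCtrl normoxia replicate 2), and of FDXR within siCtrl or siOC2, with FDXR on average between -1.62 and -1.05.

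**Figure D5:**
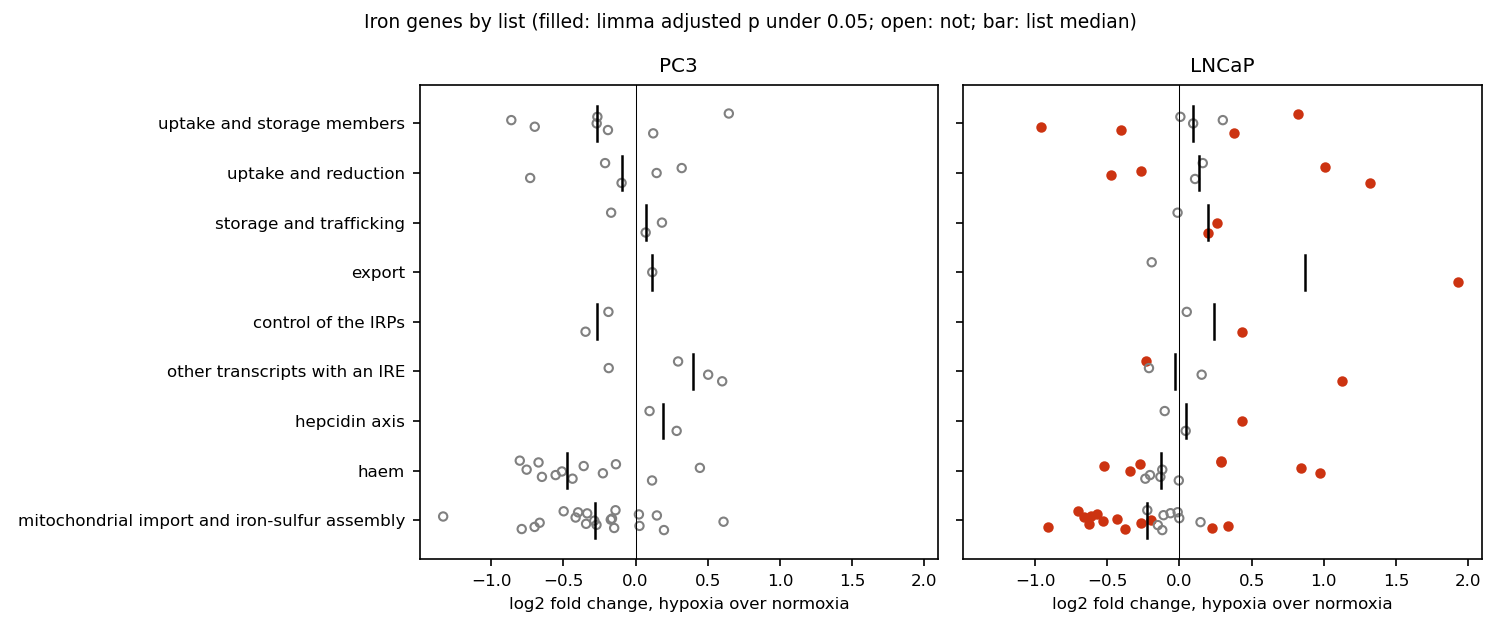
Log2 fold change in hypoxia over normoxia, averaged over both siRNA or vector groups, for the uptake and storage genes and 8 lists of other iron genes, in PC3 (left) and LNCaP (right); each point is a gene, filled where the limma adjusted p is under 0.05, and the bar is the median of the list. In LNCaP 2 genes rose and 11 fell by the adjusted p, of 21 tested in mitochondrial import and iron-sulfur assembly. Of all genes 45.2% passed, up or down. In PC3 no point is filled.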

How the data were processed

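RNA-Seq of 16 libraries was used, and 12 ChIP-Seq samples were left aside. The authors made stranded poly(A) libraries, mapped the reads with STAR 2.4.2a (hg19) and deposited RPKM values per gene from Cufflinks 2.1.1 with a GENCODE annotation of GRCh37; tools and versions are also in the submitters' processing notes. The values were used without further scaling, with a pseudocount of 0.1 and a lower limit of 1 RPKM reached in 2 or more libraries (12214 genes for PC3 and 12284 for LNCaP, 1 of them, ONECUT2, only for EV).

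Each table was fitted apart with limma 3.58.1 in R 4.3.3 (4 groups, mean-variance trend, no block, 2-sided). The passing limits are those of the study. The TFRC to FTH1 ratio had an exact permutation test over 70 splits. Groups came from the labels. The named genes were the 9 members, listed iron genes called in any contrast and the 3 genes most correlated with a called member. The members and lists were chosen with earlier results of these data known.

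RPKM carry no counts, so precision comes from the spread of 2 libraries and from relative depth, estimated on values under 0.05 RPKM. On simulated data that estimate missed the true depth by over 3% in 1 of 210 libraries, the fewest of the limits tried. Limits of 0.3, 0.1 and 0.03 RPKM missed in 9, 2 and 4 of the 210. In the real libraries limits from 0.03 to 0.3 RPKM gave the same depths. Exact zeros may be failed estimates: up to 6 genes per library were at 0 with over 10 RPKM in all others. In simulated data 200 genes were changed by 2 on the log2 scale, up or down. Of these 185 were called in PC3, with 309 unchanged ones (11923 genes), and 200 with 45 in LNCaP (11928 genes). At an adjusted p under 0.05 these were 109 with 2 and 192 with 9. The changes of TFRC, FTH1, ACO1 and IREB2 were smaller, so these rates do not give the recovery of such changes. Alternatives were a pseudocount of 1, no limit or one of 5 RPKM, upper-quartile (75%) scaling, a replicate block, zeros as missing, only the groups compared, other call rules and leaving out each library. One check of the cell line labels is not reported here.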

Additional observations from a re-analysis of the deposited data

Results flagged for a closer look

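A test of the difference itself picked out 2 genes in LNCaP: the response of FTH1 to hypoxia was larger with ONECUT2 than with the empty vector by 0.54 on the log2 scale (unadjusted P = 0.0375, adjusted p = 0.267), and that of BMP6 by 1.504 (unadjusted P = 0.00519, adjusted p = 0.142). Neither passed the adjustment over all genes.

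In 3 further cases the 2 groups compared did not overlap in either line, and the lines differed in direction. These differences between the lines were not tested, and the share of all genes with such a pattern was not computed. FTH1 in hypoxia was lower in PC3 with siOC2 (log2 fold change -0.96) and higher in LNCaP with OC2 (0.57). In LNCaP with EV the FTH1 libraries of the oxygen levels overlapped. ACO1 was higher in PC3 with more ONECUT2 in normoxia (0.27) and in hypoxia (0.45), and lower in LNCaP with more ONECUT2 in normoxia (-0.076) and in hypoxia (-0.22). None of the 4 ACO1 values passed in its own line. Groups of 2 libraries allow no search for a library far from the others.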

How the results depend on the processing

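Counts of the 7 tested genes that passed moved as follows. With an unadjusted P under 0.05 and no fold limit they were 2 in each PC3 hypoxia contrast (7.38%, 6.71% and 14.0% of all genes). In LNCaP they were 3, 5 and 5 for hypoxia with EV, with OC2 and on average (44.4%, 40.6% and 53.6% of all genes). They were 3 for OC2 over EV in LNCaP hypoxia (28.2%) and 1 for the LNCaP interaction (16.9%). With the adjusted p they were 3, 3 and 4 for LNCaP hypoxia with EV, with OC2 and on average (32.3%, 26.9% and 45.2%). For OC2 over EV in normoxia the adjusted count was 0 (5.25%). CP in hypoxia with OC2 was not called (count 0) with a pseudocount of 1, with no limit on low values or with only the groups compared, and CP for OC2 over EV in normoxia (count 0) with a pseudocount of 1, no limit or upper-quartile scaling, while upper-quartile scaling called CP (count 1) in hypoxia on average. Leaving out 1 library gave 0 to 1 called genes in each LNCaP contrast, 0 to 2 in PC3 hypoxia with siOC2 (FTH1 and FTL without the shallow siOC2 hypoxia siRNA1 library), 0 to 1 in PC3 hypoxia on average and in both siCtrl over siOC2 contrasts, and 0 in the other PC3 contrasts. The log2 TFRC to FTH1 difference of 1.51 in PC3 was 1.32 to 1.64 and that of 0.52 in LNCaP 0.30 to 0.74; with FTL as the denominator they were 0.92 (exact permutation p = 0.0286) and 0.72 (p = 0.0571).

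Values that turned sign passed in neither setting; the cause was not tested. They were, under upper-quartile scaling, FTH1 in hypoxia with EV (-0.0048) and ACO1 for OC2 over EV in normoxia (0.0025), and over the libraries left out FTL in hypoxia on average in PC3 (-0.57 to 0.031) and LNCaP (-0.081 to 0.27), FTH1 in hypoxia with EV (-0.20 to 0.25), the TFRC interaction in PC3 (-0.26 to 0.15) and LNCaP (-0.19 to 0.32) and the CP interaction (-1.30 to 0.42). Of 41 member values not printed, all with a P of 0.05 or more, 27 turned sign in some alternative. Upper-quartile scaling moved the median of all genes in PC3 hypoxia with siOC2 from -0.222 to -0.0908 and in the PC3 interaction from 0.167 to 0.00584.

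The replicate numbers do not establish pairs: deviations of same-numbered libraries correlated from -0.186 to 0.618 in PC3, the highest between the siOC2 groups, which share siRNA numbers, and from -0.0648 to 0.275 in LNCaP. With the replicate number as a block, SLC40A1 was called for siCtrl over siOC2 in PC3 hypoxia (count 1), the other counts of called members were unchanged, and the ratio test gave p = 0.0556 in PC3 (the smallest possible with the block) and 0.2222 in LNCaP (exact permutation within numbers). Shallow PC3 libraries, 2 libraries a group and RPKM without counts limit what low genes such as SLC40A1 and CP can show.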
